A study of Homo sapiens with 4 samples.

Results

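The genes described here are VSIG1 and 9 other genes whose proteins sit at or under the tight junction of epithelial cells, CLDN1, CLDN2, CLDN4, CLDN7, CLDN12, OCLN, F11R, TJP1 and CXADR. These 10 genes were taken by symbol from the 61541 gene IDs of the count table. VSIG1 was selected on its large fall after UBXN1 knockdown in these same libraries, so its change is given as a description without a test. The other 9 are junction genes whose changes did not enter the rule, although they were listed with earlier results of these data known.

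RNA was sequenced from MHCC97H cells, an established human hepatocellular carcinoma line, in 4 libraries. Of these, 2 came from cells with a control shRNA (shCon) and 2 from cells with an shRNA against UBXN1 (shUBXN1), which encodes a ubiquitin-binding adaptor of the p97 segregase. By the study's methods, shRNAs were delivered in a lentiviral vector. Which UBXN1 shRNA these libraries carry is not given in the sources used here, and an effect of a hairpin itself and of lower UBXN1 cannot be told apart. The labels do not say whether replicates were separate cultures, and the p-values measure only the spread between these libraries, which may be technical.

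Library totals were 23373700 to 27380508 expected counts. UBXN1 itself gave 1788 and 1817 counts in shCon and 416 and 433 in shUBXN1. Both knockdown libraries were thus below both control libraries, with 24.4% of the shCon level left after scaling. The share of counts on mitochondrial genes was 5.28% and 5.59% in shCon and 7.43% and 8.27% in shUBXN1, and its part in the results was not tested. In bulk RNA, fewer cells that express a gene and less RNA per cell cannot be told apart.

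Tight junctions seal the space between epithelial cells near their apical side. Claudins, small proteins that cross the membrane 4 times, form the strands, and the set of claudins that a cell makes sets which ions pass: some, such as claudin-2, form pores, and others mainly seal. Occludin joins the strands, immunoglobulin-type proteins such as JAM-A (F11R), CAR (CXADR) and VSIG1 lie beside them, and ZO-1 (TJP1) anchors them to actin. In liver, tight junctions separate the bile canaliculus from the blood side of the hepatocyte. VSIG1 is known mainly as a protein of the gastric epithelium, and it can bind ZO-1.

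By position on GRCh38 in GENCODE v44, VSIG1 and CLDN2 both lie on the plus strand of chromosome X, at chrX:108044970-108079184 and chrX:106900164-106930861. CLDN4 (chr7:73799542-73832690) and CLDN12 (chr7:90383721-90513402) are both on the plus strand of chromosome 7. CLDN1 lies at chr3:190305707-190322446 on the minus strand and CLDN7 at chr17:7259903-7263983 on the minus strand. OCLN (chr5:69492292-69558104, plus strand), F11R (chr1:160995211-161021343, minus strand), TJP1 (chr15:29699367-29968915, minus strand) and CXADR (chr21:17513043-17593579, plus strand) complete the set.

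The promoters of 2 claudins that fell and 1 that rose are shown as examples of how much the claudin promoters differ in composition, and they were picked after the values were seen. Each is the 250 bases before an annotated transcription start, read 5′ to 3′ in the direction of the gene from RefSeq on GRCh38.p14. Capitals mark matches to the AP-1 motif (TGANTCA) and the GC box (GGGCGG or its reverse complement), the motifs among 10 searched that were found in these 3 windows. The windows are chrX:106899914-106900163 on the plus strand for the first of the 2 starts of CLDN2, chr7:73830746-73830995 on the plus strand for CLDN4, which lies inside the longer GENCODE span of that gene, and chr3:190322447-190322696 on the minus strand for CLDN1.
CLDN2: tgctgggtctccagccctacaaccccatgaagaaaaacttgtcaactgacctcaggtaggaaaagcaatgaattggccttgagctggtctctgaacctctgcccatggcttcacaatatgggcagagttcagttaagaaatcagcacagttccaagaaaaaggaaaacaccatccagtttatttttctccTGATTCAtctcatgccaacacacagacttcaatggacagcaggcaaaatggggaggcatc
CLDN4: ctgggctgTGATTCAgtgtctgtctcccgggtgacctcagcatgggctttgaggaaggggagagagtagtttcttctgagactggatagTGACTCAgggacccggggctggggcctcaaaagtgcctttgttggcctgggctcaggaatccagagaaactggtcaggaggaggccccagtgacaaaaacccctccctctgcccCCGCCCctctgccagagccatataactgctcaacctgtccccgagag
CLDN1: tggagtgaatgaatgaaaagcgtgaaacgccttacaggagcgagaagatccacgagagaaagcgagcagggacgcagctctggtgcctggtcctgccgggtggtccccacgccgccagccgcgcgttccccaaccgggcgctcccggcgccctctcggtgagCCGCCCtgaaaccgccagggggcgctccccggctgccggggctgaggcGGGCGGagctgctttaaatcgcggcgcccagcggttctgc

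The CLDN2 window held no CpG at 46.0% GC, the CLDN4 window 4 CpGs at 58.8% GC, and the CLDN1 window 28 CpGs at 68.8% GC. Composition did not follow direction over the other claudins: CLDN12, which rose, had 12 CpGs at 54.4% GC, and the windows of CLDN7, which fell, had 9 CpGs at 60.4% GC and 25 CpGs at 71.2% GC. Over 35116 promoter windows of this length the medians were 11 CpGs and 58.0% GC. An AP-1 match lay 53 bases before the CLDN2 start, and 2 lay in the CLDN4 window, the nearer 154 bases before the start. Neither window of CLDN7, which also fell, held an AP-1 match, nor did the second CLDN2 window. The AP-1 letters occurred in 6.57% of all windows and the GC box, found once in CLDN4 and in 2 copies in CLDN1, in 42.6%.

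The table held 13 starts of 7 of the 10 genes, and VSIG1, F11R and CXADR had no entry. No motif matched in the window of CLDN12, in the second CLDN2 window or in the first CLDN7 window. The second CLDN7 window held 1 GC box and 4 matches to the Snail E-box (CACCTG), which occurred in 17.5% of all windows. The first OCLN window held 1 Snail E-box and 1 GC box and the second 1 Snail E-box. GC boxes lay in 3 of the 4 TJP1 windows and a Snail E-box in the first. The other motifs searched, on both strands and counting overlaps, included the TATA box (TATAAA, in 10.7% of all windows) and those of FOXA (TGTTTAC, 2.98%), CDX (TTTATNG, 8.93%), GATA factors (AGATAA, 9.17%), SOX (CATTGT, 9.29%) and HNF4 (CAAAGTCCA, 0.325%), and none of them matched a member. A match or its absence describes only the letters of these windows.

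In UBXN1-knockdown cells, the junction genes did not move as a block. Among the 9 genes other than VSIG1, CLDN2, CLDN4, CLDN7 and F11R fell and CLDN1 and CLDN12 rose at a Benjamini-Hochberg adjusted p under 0.05 in edgeR, and OCLN, TJP1 and CXADR did not pass. All 9 passed the filter on low counts, and so did VSIG1. Of the 16863 genes tested, 28.0% rose, 28.2% fell and 56.2% did either, so 6 of 9 is near the background. At a fold change of 2 with an unadjusted p under 0.05, 3 of the 9 fell (CLDN2, CLDN4 and CLDN7) and 1 rose (CLDN1), against 6.09% and 11.8% of all genes and 17.9% in either direction. The libraries of the groups did not overlap for 8 of the 9 genes, with 6 lower and 2 higher in shUBXN1, against 38.6% lower, 39.4% higher and 78.0% in either direction over all genes. The median log2 fold change was −0.24 over the 9 genes and 0.02 over all genes tested.

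**Figure D1:**
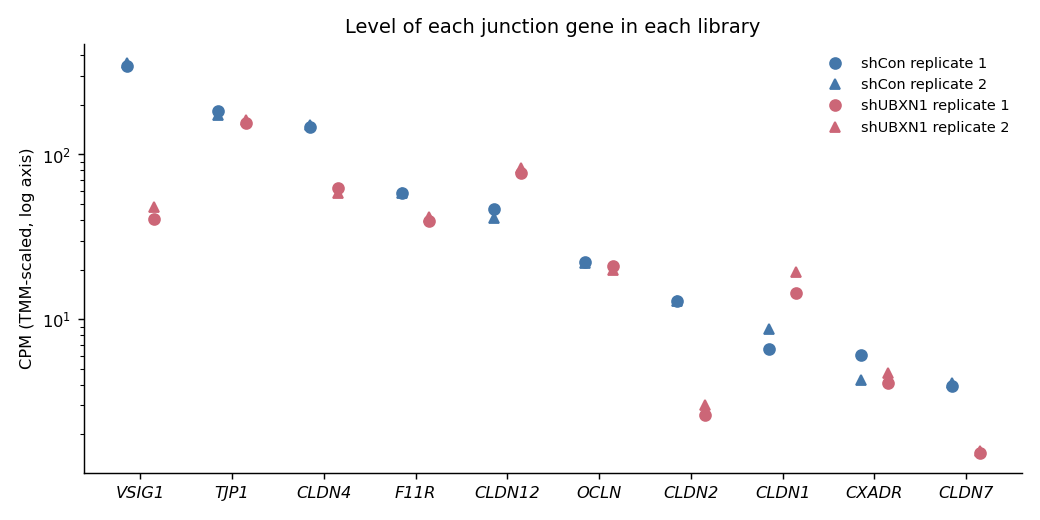
Level of the 10 junction genes in each of the 4 libraries, in counts-per-million (CPM) after TMM scaling on a log axis; colour gives the group and marker shape the replicate. VSIG1 sits at 343 and 357 CPM in shCon and at 40.7 and 48.3 in shUBXN1, CLDN2, CLDN4 and CLDN7 are lower and CLDN1 and CLDN12 higher in both shUBXN1 libraries, and the points of OCLN, TJP1 and CXADR lie close together.

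VSIG1 gave 9145 and 8377 counts in the shCon libraries and 1007 and 1131 in the shUBXN1 libraries. Both shUBXN1 libraries were far below both shCon libraries, and the libraries within a group lay close together. Scaled for library size with TMM factors to counts-per-million (CPM), shCon stood at 350 ± 9.60 and shUBXN1 at 44.5 ± 5.39 (SD, n = 2 each), so that the knockdown cells kept 12.7% of the control level. On the log2 scale the change was −2.98, the 67th largest fall among 16863 genes. Per kilobase of gene length, VSIG1 was the most abundant of the 10 genes in shCon, at 108 CPM per kilobase. It ranked 676th among the genes tested in shCon and 5065th in shUBXN1, at 13.8 CPM per kilobase.

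F11R encodes JAM-A, an adhesion protein of the same immunoglobulin family that helps place polarity proteins at the junction. In shCon it gave 1546 and 1378 counts, against 981 and 976 in shUBXN1. Both shUBXN1 libraries were lower once scaled, at 39.6 and 41.7 CPM against 58.0 and 58.7. F11R fell by 0.52 on the log2 scale (SE 0.0774, edgeR adjusted p = 5.25e-05), to 69.7% of the shCon level. Another coding gene annotated on the same strand (ENSG00000270149) covers 36.6% of the exon bases of F11R. It held 28 and 48 counts in shCon and 26 and 85 in shUBXN1, and how reads in the shared bases were divided is not given in the sources used here.

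CXADR encodes the coxsackievirus and adenovirus receptor, a junction protein that also serves as a virus receptor. It gave 162 and 101 counts in shCon and 102 and 110 in shUBXN1, and the groups overlapped. Its log2 fold change was −0.24 (95% interval −0.73 to 0.25, edgeR adjusted p = 0.392). Without shCon replicate 1 it was 0.03, so the sign of this value rested on 1 library. Its pseudogenes CXADRP1 and CXADRP2 had no count in any library, and CXADRP3 had at most 4.

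**Figure D2:**
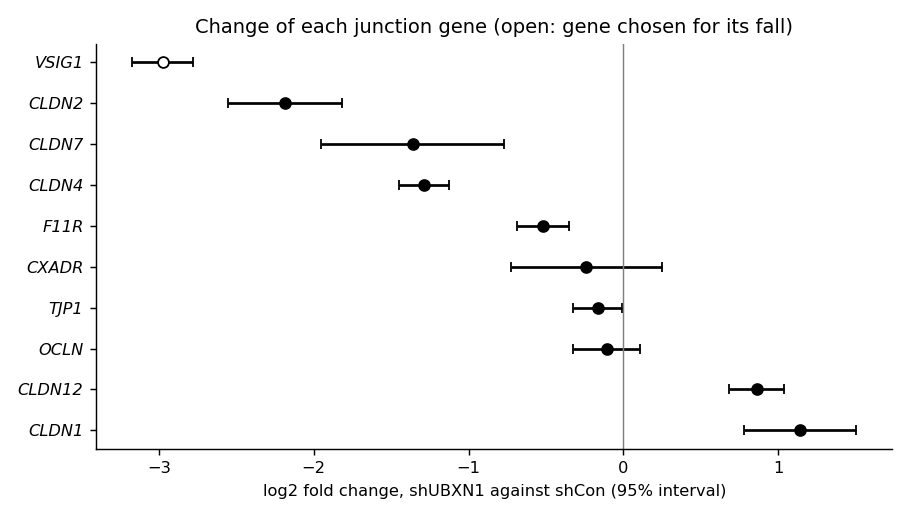
Log2 fold change of each of the 10 genes, shUBXN1 against shCon, with 95% intervals from the edgeR fit. The open marker is VSIG1, which was chosen for its fall, so its interval is not a test of that fall. The intervals of CLDN2, CLDN4, CLDN7 and F11R lie below 0, those of CLDN1 and CLDN12 above 0, that of TJP1 ends just below 0, and those of OCLN and CXADR span 0.

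CLDN4, a claudin that tightens epithelia against sodium, was the claudin with the highest level per kilobase. In shCon it gave 3904 and 3540 counts, against 1558 and 1369 in shUBXN1, with the groups well apart. The level was 149 ± 3.01 CPM in shCon and 60.7 ± 3.17 CPM in shUBXN1 (SD, n = 2 each), so that 40.9% was left. CLDN4 fell by 1.29 on the log2 scale (SE 0.0753, edgeR adjusted p = 6.29e-09).

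CLDN2, which forms a cation and water pore in leaky epithelia, changed most among the claudins tested. It gave 342 and 304 counts in shCon and 65 and 71 in shUBXN1. The shCon libraries, at 12.8 and 12.9 CPM, were both above the shUBXN1 libraries, at 2.63 and 3.03 CPM. CLDN2 fell by 2.19 on the log2 scale (SE 0.171, edgeR adjusted p = 1.03e-07), to 22.0% of its shCon level. RIPPLY1, on the other strand, shares 9.99% of the exon bases of CLDN2 and had 3 counts in 1 shCon library and 0 in the other 3.

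CLDN7, a claudin of the lateral membrane, was present at a lower level. In shCon it gave 105 and 96 counts, against 38 and 37 in shUBXN1, and the groups did not overlap. It fell by 1.36 on the log2 scale (SE 0.277, edgeR adjusted p = 0.000774), and the small counts leave a wide 95% interval of −1.96 to −0.77. With limma on log2(TPM + 1) its log2 fold change was −0.999, just short of a fold change of 2. ELP5, an Elongator subunit on the other strand that shares 1.52% of the exon bases of CLDN7, also fell, by 0.32 (edgeR adjusted p = 0.00768). The same-strand gene ENSG00000262302, which covers 10.8% of them, had at most 2 counts.

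CLDN1, a sealing claudin that is also an entry factor for hepatitis C virus, moved the other way. It gave 177 and 204 counts in shCon and 355 and 454 in shUBXN1. Both shUBXN1 libraries, at 14.3 and 19.4 CPM, were above both shCon libraries, at 6.64 and 8.68 CPM. CLDN1 rose by 1.14 on the log2 scale (SE 0.169, edgeR adjusted p = 5.00e-05), a fold change of 2.20. The replicates of CLDN1 were further apart than those of CLDN4 or CLDN2. Without shCon replicate 1 its log2 fold change was 0.95, and without shUBXN1 replicate 2 it was 0.91, below a fold change of 2 with the adjusted p still under the threshold.

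CLDN12, a claudin that lacks the PDZ-binding tail with which most claudins hold ZO-1, was the other claudin of the set that rose. In shCon it gave 1237 and 974 counts, against 1908 and 1931 in shUBXN1, and the groups were apart. The level went from 43.9 ± 3.49 to 79.8 ± 3.81 CPM (SD, n = 2 each). CLDN12 rose by 0.86 on the log2 scale (SE 0.0822, edgeR adjusted p = 7.54e-07), a fold change of 1.82. It shares 5.17% of its exon bases with GTPBP10, 3% with CDK14, 7.92% with PTTG1IP2 and 5.53% with a lncRNA, all on its own strand. GTPBP10, a mitochondrial ribosome assembly factor, fell by 0.83 (edgeR adjusted p = 1.25e-05), and CDK14 did not pass, at 0.38 (edgeR adjusted p = 0.0687). PTTG1IP2 and the lncRNA had no count. How reads in the shared bases were assigned is not given in the sources used here.

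OCLN encodes occludin, the first tight junction membrane protein to be described. It gave 590 and 518 counts in shCon and 521 and 466 in shUBXN1. The scaled levels, 22.1 and 22.0 CPM against 21.1 and 19.9 CPM, were nearly the same. Its log2 fold change was −0.11 (SE 0.10, edgeR adjusted p = 0.376), with a 95% interval of −0.32 to 0.11. A fall of the size seen in CLDN4 lay outside that interval. The pseudogene OCLNP1 held 4 to 15 counts.

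TJP1 encodes ZO-1, the scaffold that binds the tails of most claudins, occludin, JAM-A and VSIG1. In shCon it gave 4870 and 4095 counts, against 3853 and 3797 in shUBXN1. Both shUBXN1 libraries, at 156 and 162 CPM, were below both shCon libraries, at 183 and 174 CPM. The log2 fold change was −0.17 (SE 0.0729, 95% interval −0.32 to −0.01) and did not pass after adjustment (edgeR adjusted p = 0.0639). It passed without shUBXN1 replicate 2 (edgeR adjusted p = 0.01) and, with all 4 libraries, when the replicate number was added as a block (edgeR adjusted p = 0.0454), so the call depended on that library and on the model.

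Per kilobase, the order of the genes changed with the knockdown. In shCon it ran VSIG1, CLDN4 (87.6 CPM per kilobase), TJP1 (25.4), F11R (12.6), CLDN12 (12.4), CLDN2 (4.35), OCLN (3.43), CLDN7 (2.60), CLDN1 (2.22) and CXADR (0.928). The libraries of F11R and CLDN12 overlapped there, and those of all other neighbours in the order did not. In shUBXN1 it ran CLDN4 (35.8), TJP1 (22.6), CLDN12 (22.6), VSIG1 (13.8), F11R (8.77), CLDN1 (4.90), OCLN (3.18), CLDN7 (1.01), CLDN2 (0.956) and CXADR (0.789). TJP1 and CLDN12 overlapped, and so did CLDN7 and CLDN2. By the deposited gene lengths, VSIG1 thus went from the first place to the fourth, and CLDN1 from below OCLN to above it. The exon bases in GENCODE v44 exceed those lengths unevenly. They are 4699 against 1695 for CLDN4, 11259 against 6438 for OCLN and 3628 against 3446 for CLDN1. Some places in this order, such as those of CLDN1 and OCLN, therefore depend on the length used.

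Across the whole claudin family the sum of transcript levels fell and its makeup changed. Of 24 CLDN genes, 20 had a count in at least 1 library, 10 passed the filter and 4 (CLDN17, CLDN22, CLDN25 and CLDN34) had no count. Summed per kilobase, claudins were at 122 and 124 CPM per kilobase in shCon and at 78.5 and 79.5 in shUBXN1. Without division by length the fall was smaller. The 27 claudins and claudin-like genes then summed to 293 to 296 CPM in shCon and 252 to 257 CPM in shUBXN1. The size of the fall and the shares below thus depend on the gene lengths, and CLDN4 has a deposited length of 1695 bases against 4699 exon bases. CLDN4 made up 70.7% and 71.8% of that sum in shCon and 47.3% and 43.4% in shUBXN1, a difference of −25.9 percentage points between the means (71.2% ± 0.738 and 45.3% ± 2.76, SD, n = 2 each). CLDN12 made up 10.1% ± 0.903 in shCon and 28.6% ± 1.11 in shUBXN1. CLDN15, a cation pore of the gut, went from 6.02% to 10.8% of the sum and CLDN1 from 1.81% to 6.19%, while CLDN2 went from 3.54% to 1.21% and CLDN7 from 2.12% to 1.28%. These are shares of transcripts in 2 libraries a group, given without a test, and a share also moves when another claudin changes. CLDN15 itself did not pass, at 0.21 on the log2 scale (edgeR adjusted p = 0.121).

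**Figure D3:**
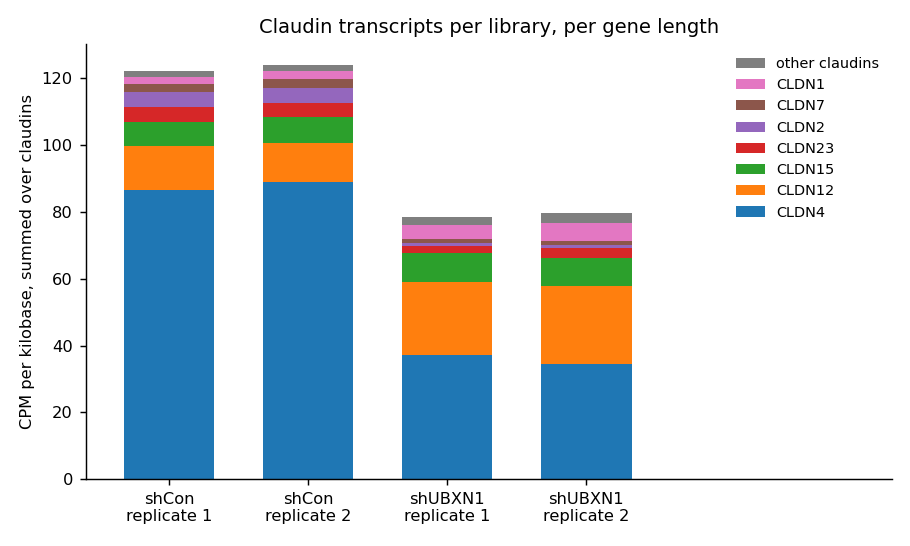
Claudin transcripts per library in CPM per kilobase, stacked by gene, 1 bar per library. The bars reach 122 and 124 in shCon and 78.5 and 79.5 in shUBXN1, and the loss is mostly in the CLDN4 segment while the CLDN12 segment is taller in shUBXN1.

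CLDN3, a sealing claudin that is the neighbour of CLDN4 on chromosome 7, 29.3 kb away, rose while CLDN4 fell. It gave only 12 and 7 counts in shCon and 28 and 32 in shUBXN1. Its log2 fold change was 1.71 (SE 0.489, edgeR adjusted p = 0.00818). At these counts it made up 0.239% of the claudin sum in shCon and 1.24% in shUBXN1. METTL27, the neighbour on the other side at 1.90 kb, did not pass, at −0.39 (edgeR adjusted p = 0.212).

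VSIG1 lies 5.02 kb from PSMD10, a chaperone of proteasome assembly, and 113 kb from MID2, a ubiquitin ligase. PSMD10 fell by 0.21 on the log2 scale (edgeR adjusted p = 0.0261), and MID2 did not pass, at 0.10 (edgeR adjusted p = 0.320). The neighbours of VSIG1 were thus near their shCon level. CLDN1 lies between P3H2, 183 kb away, which fell by 0.98, and IL1RAP, a subunit of the interleukin-1 receptor 192 kb away, which rose by 2.03 (edgeR adjusted p = 0.0115 and 1.38e-09). IL1RAP gave 260 and 238 counts in shCon and 994 and 963 in shUBXN1.

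Neighbours of the other members moved in both directions. MORC4, which overlaps CLDN2, fell by 0.40 and RBM41, 131 kb away, fell by 0.42 (edgeR adjusted p = 0.000753 and 0.00114). GTF2H2C, next to OCLN, fell by 0.70, EIF5A, next to CLDN7, by 0.40 and USP25, 1630 kb from CXADR, by 0.53 (edgeR adjusted p = 2.86e-05, 0.00131 and 0.000371). BTG3, beside CXADR, did not pass, at −0.08 (edgeR adjusted p = 0.808), nor did NSMCE3 beside TJP1, at −0.20 (edgeR adjusted p = 0.117). CHRFAM7A, on the other side of TJP1, rose by 0.75 (edgeR adjusted p = 0.0270), and ITLN2, beside F11R, rose from 1 and 4 counts to 24 and 18 (edgeR adjusted p = 0.00178).

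The genes whose log2 CPM, centred over the 4 libraries, lay nearest to that of VSIG1 were HMOX1, MAGEC1, LINC02300, BRINP2 and GATA2. HMOX1, which encodes the heme-degrading enzyme heme oxygenase 1, was nearest, at a root mean square distance of 0.0478 log2 units, with 11307 and 10721 counts in shCon and 1256 and 1322 in shUBXN1. MAGEC1, a cancer-testis antigen, followed at 0.0868 (292 and 238 against 31 and 36 counts), and GATA2, a transcription factor of blood and endothelium, was at 0.126 (634 and 519 against 71 and 64 counts). LINC02300 (14 and 12 against 0 and 0 counts) and BRINP2 (17 and 15 against 0 and 0 counts) came between them at 0.105 and 0.122, distances that depend on the prior count added before the log. With 4 libraries in 2 groups, likeness means little more than a fall of like size once that prior count is added. By the edgeR log2 fold change, LINC02300 (−6.68, SE 1.29) and BRINP2 (−6.98, SE 1.23) fell further than VSIG1. With 0 counts in shUBXN1, the size of these 2 values depends on the method. It was −4.695 and −4.985 with limma-voom. With limma on log2(TPM + 1) it was −1.36 and −0.39, less than the −2.88 of VSIG1.

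The wider junction lists did not shift together. Without VSIG1 they held 100 genes, of which 68 passed the filter, 22 rose and 17 fell, near the 28.0% and 28.2% of all genes tested, and their median log2 fold change was 0.02, as over all genes tested. Of the 27 claudins and claudin-like genes, 11 were tested, 4 rose, 4 fell and 3 did not pass, with a median of −0.60. The claudin median was the lowest among the junction protein lists, but it is the value of CLDN11, which did not pass (edgeR adjusted p = 0.108). CLDN11 gave 70 and 70 counts in shCon and 50 and 39 in shUBXN1. The next higher value in the list was the 0.21 of CLDN15, so this median does not show a shift of the claudins together.

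Among the MARVEL and tricellular proteins, which close the points where 3 cells meet, 4 of 6 were tested, with a median log2 fold change of −0.18. MARVELD2 (tricellulin), 48.0 kb from OCLN, gave 394 and 369 counts in shCon and 215 and 173 in shUBXN1 and fell by 0.92 (edgeR adjusted p = 5.21e-05). LSR, which recruits tricellulin to those points, rose by 0.66 (edgeR adjusted p = 0.000932). OCLN and MARVELD3 did not pass.

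Of the JAM and CTX proteins other than VSIG1, 9 of 15 were tested, 2 rose, 1 fell and 6 did not pass, with a median of −0.13. The shares over all genes tested were 28.0% higher and 28.2% lower. JAM3, which encodes JAM-C, gave 62 and 66 counts in shCon and 251 and 242 in shUBXN1. The groups were far apart, and JAM3 rose by 2.0 on the log2 scale (SE 0.191, edgeR adjusted p = 7.36e-07), against the fall of F11R. VSIG10 rose by 0.33 (edgeR adjusted p = 0.00221). No other tested gene of the list fell by a fold change of 2.

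Of the junction scaffolds, 15 of 16 were tested, 4 rose, 3 fell and 8 did not pass, with a median of −0.05. Among all genes tested, 28.0% rose and 28.2% fell. The paralogs cingulin (CGN) and paracingulin (CGNL1), which link junctions to the cytoskeleton, moved apart. CGN fell by 0.89, from 2713 and 2435 counts to 1451 and 1217 (edgeR adjusted p = 3.77e-07), and CGNL1 rose by 1.01, from 181 and 159 counts to 320 and 335 (edgeR adjusted p = 3.14e-05). MPDZ, a multi-PDZ scaffold, rose by 0.87 (edgeR adjusted p = 0.00117).

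Of the apical polarity proteins, 14 of 18 were tested, 5 rose, 5 fell and 4 did not pass, with a median of 0.14. For comparison, 28.0% of all genes tested rose and 28.2% fell. LIN7A fell by 1.22 and CRB3, the epithelial Crumbs protein, by 1.16 (SE 0.131 and 0.176). PARD6G, a partner of atypical protein kinase C, rose by 0.83 (SE 0.172).

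Of the claudin partners and regulators, 15 of 18 were tested, 6 rose, 3 fell and 6 did not pass, with a median of 0.28. Over all genes tested, 28.0% rose and 28.2% fell. SPINT1 and SPINT2 encode membrane inhibitors of serine proteases such as matriptase, which is encoded by ST14 and cleaves EpCAM, a protein that binds claudin-7. SPINT1 gave 780 and 666 counts in shCon and 2357 and 2356 in shUBXN1 and rose by 1.76 (SE 0.0787, edgeR adjusted p = 5.60e-10). SPINT2 rose by 1.70 (edgeR adjusted p = 3.39e-06) and ST14 by 0.69 (edgeR adjusted p = 0.0142). The call of ST14 was lost without shCon replicate 1 (edgeR adjusted p = 0.0862) and in DESeq2 (adjusted p = 0.0541). EPCAM itself was near the limit of detection, at 10 and 14 counts against 19 and 19.

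**Figure D4:**
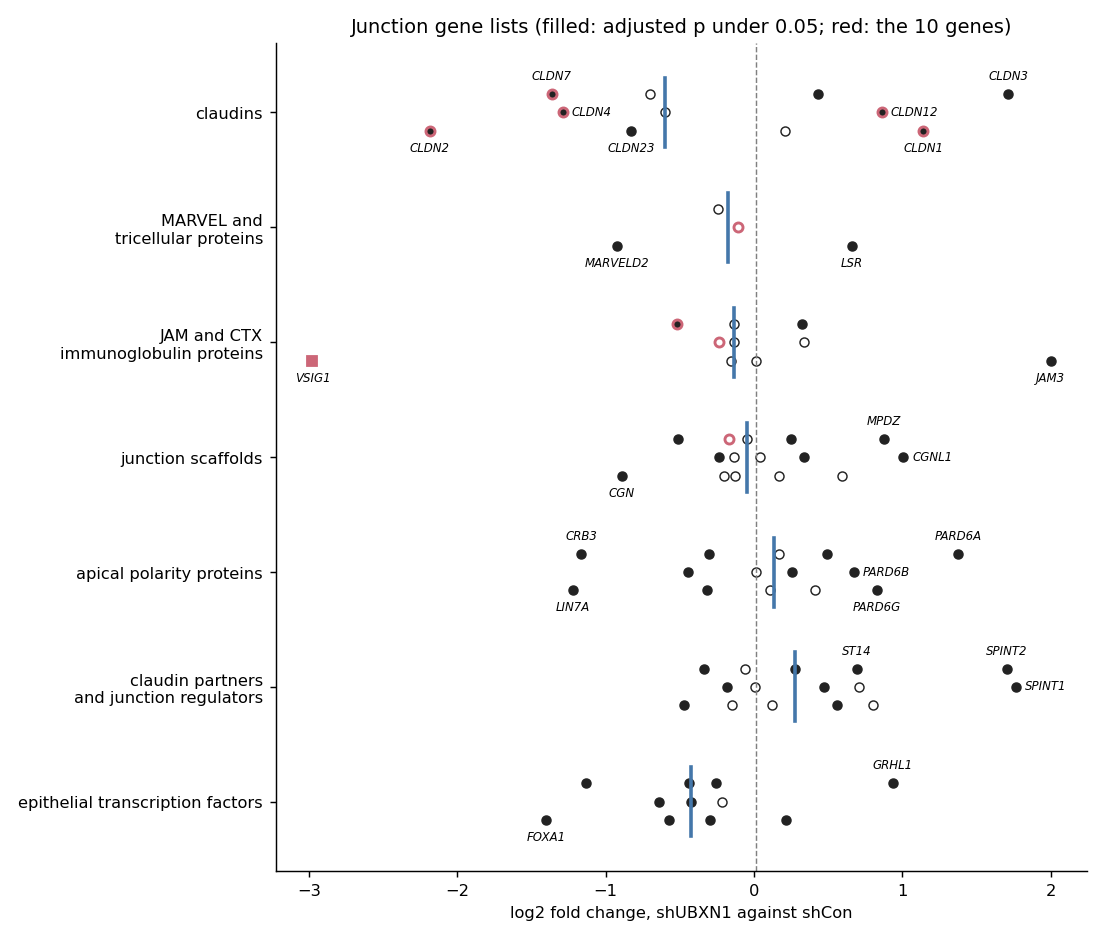
Log2 fold change of each tested gene of the 7 junction lists, shUBXN1 against shCon, 1 row per list; filled points have an adjusted p under 0.05 in edgeR, red marks the 10 genes, the red square is VSIG1, which was chosen for its fall and not tested, each blue bar is a list median and the dashed line the median of all genes. The median bars lie between −0.60 for claudins and 0.28 for claudin partners and regulators, with rises and falls in each list.

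Of the transcription factors known in epithelia, 11 of 15 were tested, 8 fell, 2 rose and 1 did not pass, with a median of −0.43, beside 28.2% of all genes that fell and 28.0% that rose. FOXA1, a pioneer factor of liver and gut, gave 1373 and 1239 counts in shCon and 440 and 508 in shUBXN1 and fell by 1.40 (edgeR adjusted p = 4.03e-08). GRHL1, a grainyhead factor, rose by 0.93 from small counts (69 and 41 against 116 and 85, edgeR adjusted p = 0.0115), and the call was lost without shCon replicate 2 (edgeR adjusted p = 0.10) or shUBXN1 replicate 1 (edgeR adjusted p = 0.0704). The part of these factors in the claudin values was not tested.

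Of the hepatocyte markers, 11 of 12 were tested, 8 fell, 1 rose and 2 did not pass, beside 28.2% of all genes that fell and 28.0% that rose, and their summed level was 298 to 306 CPM in shCon and 137 to 143 CPM in shUBXN1. TF (transferrin), the member with the most counts, fell by 1.96 from 2742 and 2170 counts to 634 and 572 (edgeR adjusted p = 4.30e-10). ALB fell by 1.97 (edgeR adjusted p = 5.49e-08), from 479 and 403 counts. GPC3, a marker of many liver cancers, had no count in any library. The part of these changes in the junction values was not tested.

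The gastric list without VSIG1 had 7 of 11 genes tested, with 2 lower, 3 higher and 2 that did not pass. Beside these, 28.2% of all genes fell and 28.0% rose. That list had a median of −0.52 and a summed level of 265 to 266 CPM in shCon and 141 to 142 CPM in shUBXN1. ANXA10, its member with the most counts, fell by 1.68 from 4466 and 3888 counts to 1219 and 1287 (edgeR adjusted p = 9.36e-10). Most of the drop in the summed level was in ANXA10. SOX2, a stem cell and foregut factor, fell by 1.89 (edgeR adjusted p = 2.49e-09), whereas the mucin MUC6 and the trefoil peptide TFF2 rose by 1.57 and 1.37 (edgeR adjusted p = 0.00361 and 0.000356). The genes of 3 other secreted stomach proteins on the list, GKN1, GKN2 and LIPF, had no count in any library. The part of the gastric genes in the VSIG1 value was not tested.

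Of the biliary epithelium markers, 7 of 10 were tested, 3 rose, 1 fell and 3 did not pass. The shares over all genes tested were 28.0% higher and 28.2% lower. The biliary list had a median of 0.38 and a summed level of 1620 to 1670 CPM in shCon and 1880 to 2000 CPM in shUBXN1. SPP1 (osteopontin) made up most of that sum and rose by 0.38 (edgeR adjusted p = 0.00179), MUC1, a membrane mucin, rose by 2.39 from 245 and 195 counts to 1311 and 907 (edgeR adjusted p = 6.99e-09), KRT7 rose by 1.15 (edgeR adjusted p = 2.09e-08) and KRT19 fell by 1.24 (edgeR adjusted p = 1.51e-08). CFTR had no count. Of the stromal, endothelial and blood markers, 5 of 10 were tested, 2 rose, 2 fell and 1 did not pass, beside the shares above. Their sum was 118 to 124 CPM in shCon and 117 to 120 CPM in shUBXN1, most of it from CD68, which tumour cells can also express, and CD3E had no count. The part of both lists in the junction values was not tested.

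**Figure D5:**
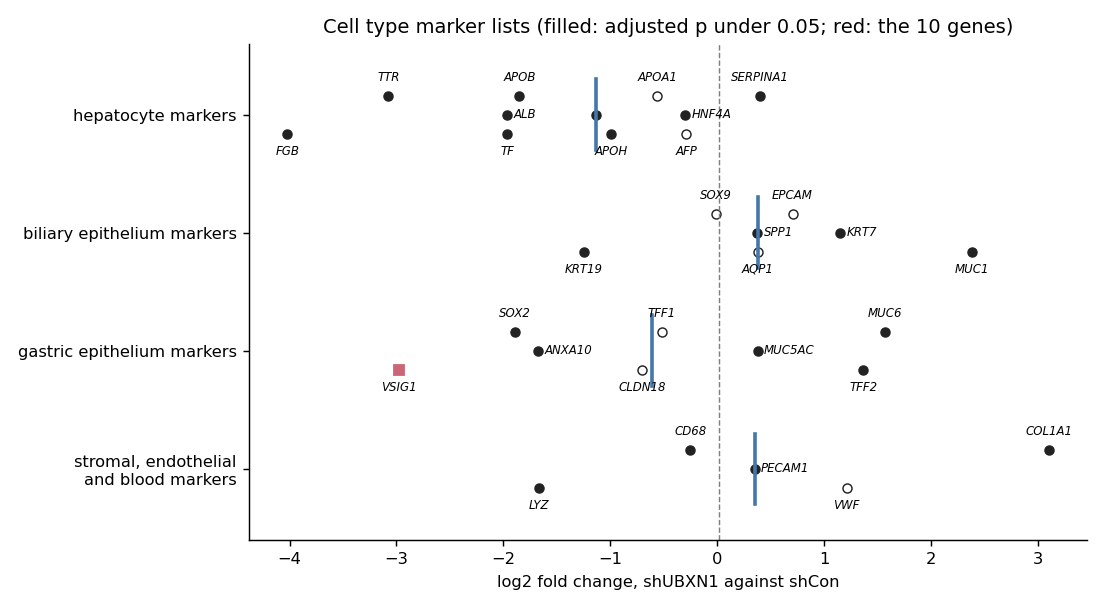
Log2 fold change of each tested gene of the 4 marker lists, shUBXN1 against shCon, 1 row per list, with the same markers and lines as in the plot of the junction lists. Most hepatocyte markers lie below 0, the biliary median lies at 0.38, and the gastric genes lie on both sides of 0, with the red square of VSIG1 at −2.98.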

How the data were processed

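RNA from 4 MHCC97H libraries, 2 shCon and 2 shUBXN1, was measured by mRNA-seq, with groups and replicate numbers from the sample titles. The authors deposited expected counts per Ensembl gene, not normalized, with a gene length. The submitters' processing notes name HISAT2 2.0.4, StringTie 1.3.0 and GRCh37, whereas the study's methods name GRCh38 and describe TPM tested with limma. The counting tool, annotation release and use of strand are not given in the sources used here. The table holds no coordinates, and positions are those of GENCODE v44 on GRCh38 matched by gene ID, by which 99.7% of 61541 IDs had a symbol. Totals of 23373700 to 27380508 per library set the counting precision, and 62.4% to 64.6% of values above 0 were whole.

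Expected counts were rounded, filtered with filterByExpr (16863 genes kept), scaled by TMM and tested two-sided with glmQLFit and glmQLFTest in edgeR 4.0.16 (R 4.3.3) on group alone, with Benjamini-Hochberg adjustment over all genes kept. A gene rose or fell at an adjusted p under 0.05. The fold change of 2 with an unadjusted p under 0.05 follows the study. With 2 libraries a group, an exact permutation test of 1 value cannot go below 0.333, so none was run. On simulated counts for this comparison the test recovered 152 of 200 genes changed 2-fold (76.0%) among 16863 and called 12 others. Far fewer genes changed there than the 56.2% called in the data, so these rates need not hold for the data. Replicate counts differed beyond sampling noise (chi-square/df 3.79 for shCon, 8.37 for shUBXN1), and each library was counted once.

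The 10 genes, the lists, the markers and the tests were chosen with earlier results of these data known. The genes named are the members, UBXN1 and the 3 largest changes per junction list. Those changes were taken among genes with an adjusted p under 0.05 and a mean log2 CPM above 0. Named too are the markers with the most counts, the 5 genes nearest VSIG1, each member's nearest tested coding neighbours, and overlapping genes and pseudogenes. CLDN11, CLDN15, EPCAM, ALB, SOX2, MUC6, TFF2, MUC1, KRT7, KRT19, MARVELD3 and the markers without a count were named after their values were seen, and so was the motif list. A gene and a motif that these rules take in are not reported by name here. Alternatives were DESeq2 1.42.0, total count scaling, 2 other filters on low counts, limma-voom and limma 3.58.1 on log2(TPM + 1), a replicate block, a fold change of 1.5 and leaving out each library. A GC correction and unrounded counts were added after seeing the data.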

Additional observations from a re-analysis of the deposited data

How the results depend on the processing

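The signs and calls of CLDN1, CLDN2, CLDN4, CLDN7, CLDN12, OCLN, F11R and UBXN1 at the adjusted p stayed as reported under each of the 13 alternatives, with log2 fold changes of 0.91 to 1.34 for CLDN1, −2.29 to −1.70 for CLDN2, −1.37 to −1.20 for CLDN4, −1.47 to −0.999 for CLDN7, 0.78 to 0.94 for CLDN12, −0.16 to −0.02 for OCLN and −0.56 to −0.44 for F11R. The untested value of VSIG1 ran from −3.10 to −2.86. The exceptions among the members were CXADR, which changed sign when libraries were left out (−0.46 to 0.032, the latter without shCon replicate 1 with an adjusted p of 0.945 in edgeR), and TJP1, which passed without shUBXN1 replicate 2 (−0.20, adjusted p = 0.01 in edgeR) and with the replicate block, and the cause was not tested. Members other than VSIG1 higher at a fold change of 2 numbered 1 as reported, 0 to 1 when libraries were left out, where CLDN1 was the gene that dropped out, and 2 at a fold change of 1.5. Those lower numbered 3 as reported and 2 with limma on log2(TPM + 1), where CLDN7 (−0.999) fell short.

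Over all genes, 1997 were higher at a fold change of 2, against 1321 with at least 10 counts in every library, 1028 with limma on log2(TPM + 1) and 3201 at a fold change of 1.5. Lower genes numbered 1027, against 524 with limma on log2(TPM + 1) and 2435 at a fold change of 1.5. Total count scaling moved the median of all genes from 0.02 to 0.10 and the higher share of the calls at the adjusted p from 49.9% to 57.3%.

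Same-numbered libraries did not deviate together (correlation 0.0393 across genes), so the replicate numbers were not taken as a pairing. With the replicate block 5000 genes rose and 5023 fell, against 4727 and 4751 without it, and TJP1 passed (−0.17, adjusted p = 0.0454 in edgeR). With 2 libraries a group the spread is poorly known, and for CLDN3, CLDN7 and CXADR small counts limit the precision.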
